A study of Mus musculus with 2 samples.

Results

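Gene deserts are long stretches of the genome without annotated genes, and the deposited peak list of a mouse hippocampus Cut&Tag experiment held 393 peaks in them, of 5326 peaks in all. A peak was counted if it overlapped no gene of any type in the RefSeq annotation of GRCm38 and if its interval lay more than 50 kb from the nearest gene. Cut&Tag (Cleavage Under Targets and Tagmentation) maps where a protein sits on chromatin: a Tn5 transposase is brought to the protein by an antibody, and it cuts the DNA there and adds sequencing adapters. Nuclei purified from frozen hippocampus gave 1 anti-Smad4 library and 1 IgG control library, and neither had a replicate. The study worked with male APP/PS1 mice, a transgenic model of Alzheimer disease, and wild-type littermates of the same age, but the sources used here do not say which genotype, age, or treatment gave the hippocampi of these libraries. The single peak list belongs to the IgG record in the database, but no antibody is named in it, so its peaks were assigned to neither library and the antibodies were not compared. The study describes peaks of the anti-Smad4 assay, and the labels do not say whether this list holds them. Sequencing depth was not used here.

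Smad4 is the common partner of the receptor-regulated Smads, which carry TGF-β and BMP signals from the cell surface into the nucleus and act there on DNA together with other transcription factors. Gene deserts are of interest for such factors because some of them hold enhancers that act over long distances, often on genes of development and of the nervous system. Other deserts are poor in known regulatory elements, and many are rich in repeats, to which short reads cannot be assigned uniquely. A peak caller such as MACS2 compares the pileup at a site, that is, the number of overlapping fragments, with a background expected around it.

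Peaks were sparser in gene deserts than in the rest of the genome. The 393 peaks were 7.38% of the list (95% exact binomial interval 6.69% to 8.11%). If each peak were placed uniformly along its own chromosome, 14.9% of the peaks, or 793.9, would lie there, so that the deposited list had 0.495 times as many (0.449 to 0.544). The deserts covered 451.7 Mb in 3387 stretches, and their density was 0.870 peaks per Mb against 2.23 per Mb in all other sequence. Chromosome Y held 56.6 Mb of this sequence but 3 of the peaks, each with a pileup of 2. Without Y the density in the deserts was 0.987 per Mb. All intervals given are for counting error alone, and variation from animal to animal could not be estimated. Repeats and assembly gaps were not removed from the sequence, and their part in the lower density was not tested.

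The density was lower with each step away from genes up to 400 kb. It was 2.65 peaks per Mb inside genes (95% exact Poisson interval 2.56 to 2.75) and 2.43 at up to 3 kb from a gene (2.205 to 2.676), and these intervals overlap. Farther out it was 1.89 at 3 to 10 kb and 1.36 at 10 to 50 kb (1.26 to 1.46). By pileup, not every early step was lower. Peaks with a pileup of 3 or more rose from 1.32 per Mb inside genes to 1.46 at up to 3 kb. Those with 2 rose from 0.975 at up to 3 kb to 1.03 at 3 to 10 kb. Within the deserts it was 1.03 per Mb at 50 to 100 kb (0.899 to 1.17), 0.769 at 100 to 200 kb (0.638 to 0.919), and 0.575 at 200 to 400 kb (0.405 to 0.793). Beyond 400 kb there were 8 peaks in 9.13 Mb (0.876 per Mb, 0.378 to 1.73), an interval that overlaps those of the other desert classes. Without chromosome Y the values from 50 to 400 kb were 1.14, 0.877, and 0.698 per Mb. Just inside it, peaks 50006, 50087, and 50110 bp from a gene had pileups of 3, 2, and 2, and just outside it, peaks at 49832, 49896, and 49983 bp had pileups of 3, 2, and 2. The median distance of the 393 peaks to the nearest gene was 88667 bp, and the largest was 529779 bp.

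**Figure D1:**
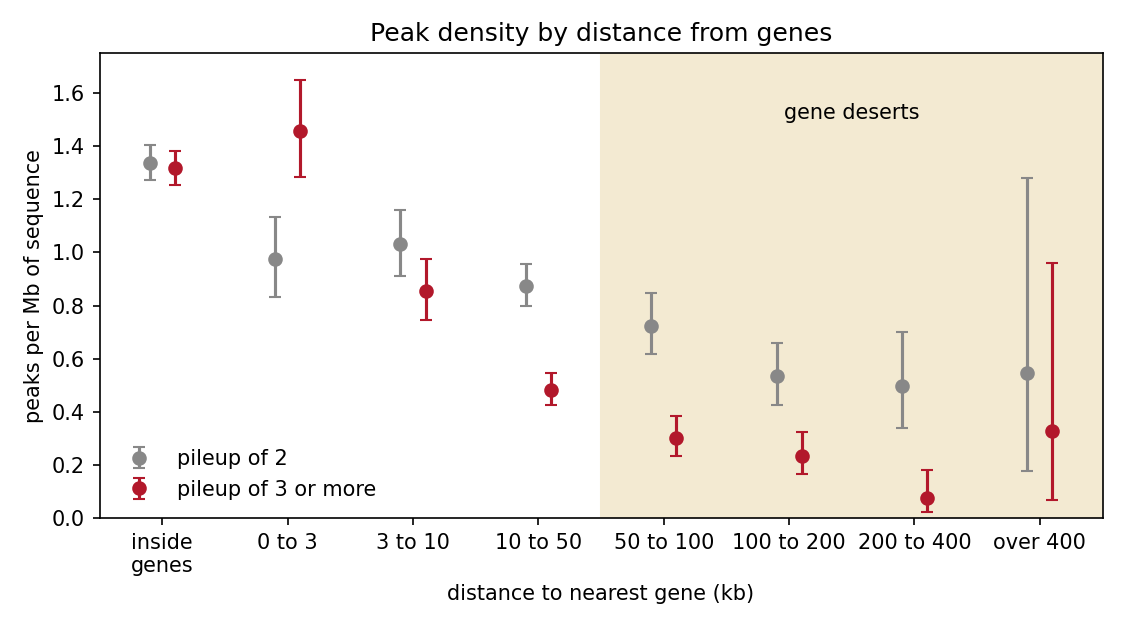
Peaks per Mb of sequence (vertical axis) by distance to the nearest gene in kb (horizontal axis), for peaks with a pileup of 2 (grey) and of 3 or more (red), with 95% exact Poisson intervals. In the gene deserts (shaded) peaks with a pileup of 2 had the higher density in each class, while inside genes the values were 1.34 and 1.32 per Mb.

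Peaks with a pileup of 3 or more were sparser in gene deserts than those with 2. Pileups were worked out from the fold enrichment and −log10 p in the list. In the deserts 281 of 393 peaks (71.5%, 95% exact binomial interval 66.8% to 75.9%) had a pileup of 2, against 53.4% of all peaks in the list. A pileup of 3 was found in 42 peaks, of 4 in 20, and of 5 in 16, and 9 peaks (2.29%, 1.05% to 4.30%) had 10 or more, against 2.74% of the list. At a pileup of 2, gene deserts held 9.87% of the peaks (8.80% to 11.0%), or 0.658 times the share expected from uniform placement. At a pileup of 3 or more they held 4.52% (3.73% to 5.41%), or 0.306 times that share, and the 2 intervals do not overlap. Among the higher pileups there was no steady trend, with 0.309 times the expected share at 3, 0.253 at 4, 0.277 at 5, 0.347 at 6 to 9, and 0.415 (0.192 to 0.766) at 10 or more. In density, peaks with a pileup of 2 numbered 1.34 per Mb inside genes and 0.622 per Mb in the deserts, and those with 3 or more numbered 1.32 and 0.248 per Mb.

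**Figure D2:**
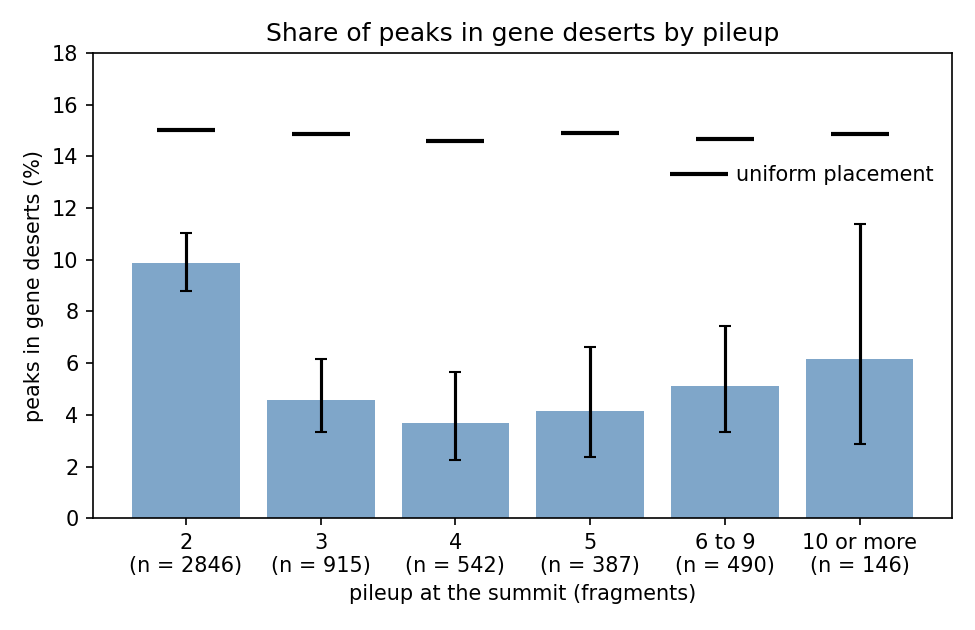
Share of peaks in gene deserts in percent (bars, with 95% exact binomial intervals) by pileup at the summit, with the number of peaks of each class and the share expected from uniform placement on the same chromosomes (black lines). The share was 9.87% at a pileup of 2 and between 3.69% and 6.16% in the other classes, each below its black line.

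At pileups of 3, 4, and 5 the background that the peak caller set against each peak was also lower in gene deserts. Backgrounds were counted in units of 0.0202 fragments, the smallest recovered background of the list divided by 2. Of the 5290 recovered backgrounds below 1 fragment, 94.7% were whole multiples of this unit (within 0.02 of a whole number). No peak of the list had fewer units than its pileup. At a pileup of 2 this follows from the definition of the unit. At 3 or more it was observed, so that the pileup was a floor for the background. Backgrounds can thus be compared at equal pileup only. At pileups of 3, 4, and 5 the median of the desert peaks was at this floor, with 3, 4, and 5 units. For all other peaks with these pileups the medians were 4, 6, and 7 units. The class of 10 or more spans many pileups, and its medians were 32 units in the deserts and 21 elsewhere, or 16 (5 peaks) and 18 without the peaks within 1 Mb of the first or last gene of a chromosome. At a pileup of 2 no peak of the list had a background above 3 units. With 3 units the −log10 q was 1.36, close to the limit of the list, in which no q-value exceeded 0.0472. Gene deserts held 12.5% of all pileup-2 peaks with a background of 2 units and 6.38% of those with 3 units (95% exact binomial intervals 10.9% to 14.1% and 5.0% to 7.99%). These shares were 0.819 and 0.433 times those expected from uniform placement. At pileups of 2 to 5, background thus differed between deserts and other sequence, and its part in the share of pileup-2 peaks was not tested.

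The enrichment values mirrored these pileups. In 207 desert peaks the fold enrichment was 2.88 and the −log10 q 1.57, and in a further 70 they were 2.83 and 1.36. These values were also the most common in the list as a whole, and the median fold enrichment was 2.88 in the deserts, in peaks 3 to 50 kb from genes, and in the class inside genes, while it was 3.63 within 3 kb of gene ends. A q-value of at most 0.01 was reached by 105 desert peaks (26.7%, 22.4% to 31.4%), against 38.6% of all peaks. The share was 34.5% (31.8% to 37.2%) at 3 to 50 kb, 38.1% (36.1% to 40.1%) inside genes and over 3 kb from their ends, and 46.3% (43.6% to 48.9%) within 3 kb of a gene end on either side, so that the interval of the desert peaks lay below each of the others. At a q-value of at most 0.001 there were 67 desert peaks (17.0%, 13.5% to 21.1%), against 22.3% of the list, and at a fold enrichment of at least 5 there were 50 (12.7%, 9.59% to 16.4%), against 17.1%. At these stricter limits the intervals of the desert peaks overlapped those of peaks 3 to 50 kb from genes, which were 19.8% (17.6% to 22.2%) and 15.5% (13.6% to 17.7%). Widths were alike, with a median of 281 bp in the deserts (193 to 671 bp) and 287 bp in the list. These are differences between classes of peaks in 1 list, and without replicates no test between samples was possible.

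The lower density in gene deserts was found on each of the 21 chromosomes. On 18 of them the exact interval of the observed share lay below the share expected from uniform placement, the exceptions being 7, 19, and X. On chromosome 7, which has 9.74 Mb of desert, the density was 2.26 peaks per Mb (1.42 to 3.42), close to the 2.39 per Mb of the rest of that chromosome. Chromosome 6 had the lowest value among the autosomes, with 10 peaks in 19.8 Mb, or 0.506 per Mb (0.243 to 0.931), against 2.36 per Mb outside deserts. Chromosome Y was lower still, with 0.0530 per Mb in deserts and 0.324 elsewhere. On chromosome X the densities were 0.542 and 0.829 per Mb and their intervals overlapped (0.326 to 0.847 and 0.681 to 0.999), as they did on 7, 18, and 19. The median over the autosomes was 0.998 per Mb in deserts and 2.36 per Mb in all other sequence.

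**Figure D3:**
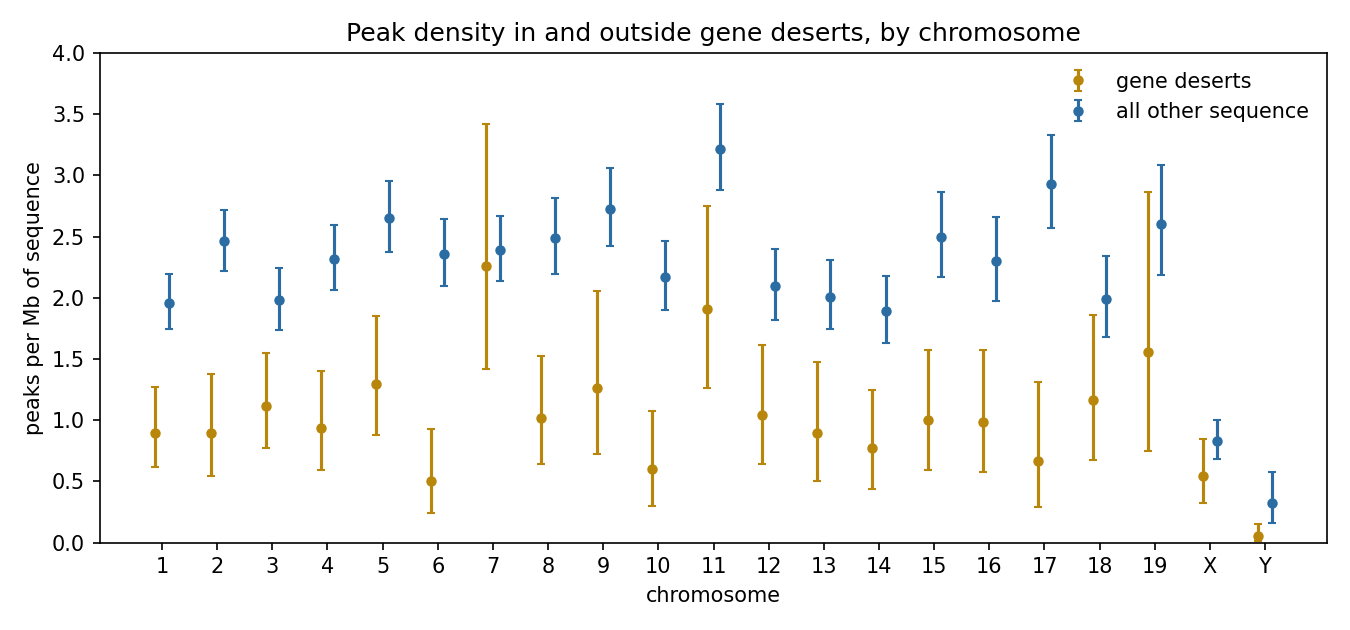
Peaks per Mb of sequence in gene deserts (gold) and in all other sequence (blue) on each chromosome, with 95% exact Poisson intervals. The gold point lies below the blue one on each of the 21 chromosomes, and the 2 are closest on chromosome 7 (2.26 and 2.39 per Mb).

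Peaks in gene deserts lay alone in most cases. Of the 3387 desert stretches, 339 held at least 1 peak and 293 held exactly 1, while 46 stretches held 2 or more and together 100 of the peaks. Another peak of any kind lay within 50 kb of 53 desert peaks (13.5%, 10.3% to 17.3%), within 100 kb of 89 (22.6%, 18.6% to 27.1%), and within 500 kb of 289 (73.5%, 68.9% to 77.8%). For comparison, 8.04%, 15.3%, and 56.2% of the desert sequence lay within these distances of a peak. Since chromosomes differ in density, the sequence was also weighted by the number of desert peaks on each chromosome, which gave 9.86%, 18.4%, and 64.0%. Desert peaks were thus nearer to other peaks than desert sequence was, by a margin that narrowed when chromosomes were weighted. Counting gene-desert peaks alone as neighbours, 54 (13.7%, 10.5% to 17.5%) had one within 100 kb, against 13.0% of the weighted sequence, a value inside the interval. Within 500 kb there were 147 (37.4%, 32.6% to 42.4%) against 31.8%, and within 1000 kb 195 (49.6%, 44.6% to 54.7%) against 44.4%, both values below the intervals. At 10 kb the order was the opposite, with 4 peaks (1.02%, 0.278% to 2.59%) against 2.12% of the weighted sequence, also inside the interval. Neighbouring peaks are counted from both sides and are not independent, so these intervals are too narrow.

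**Figure D4:**
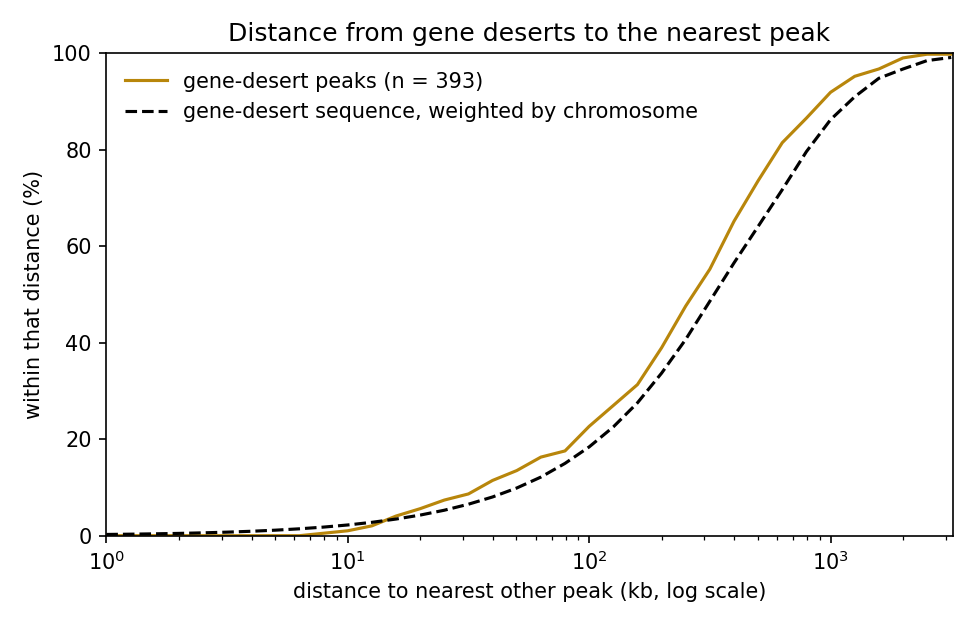
Cumulative share in percent (vertical axis) of the 393 gene-desert peaks (gold) and of gene-desert sequence (black, dashed, weighted by the desert peaks on each chromosome) with a peak of the list within a given distance in kb (horizontal axis, log scale). The curves are close up to 20 kb, and the gold curve runs higher at 50 kb (13.5% and 9.86%) and at 500 kb (73.5% and 64.0%).

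The closest neighbours among the desert peaks were 21 pairs of adjacent peaks with a gap of at most 50 kb. Of these, 10 pairs consisted of peaks with a pileup of 2 on both sides, 9 of one such peak and one with 3 or more, and 2 of peaks with 3 or more on both sides. On chromosome 7, 3 peaks with pileups of 4, 2, and 5 lay between 137851443 and 137903564, with Tcerg1l as the nearest protein-coding gene. A row of 3 peaks with a pileup of 2 each lay on chromosome 9 between 115747844 and 115790398, nearest to Gadl1, which encodes a decarboxylase. Sox9, which encodes a transcription factor of cartilage, gonad, and glial development, was the nearest coding gene of 3 peaks on chromosome 11, each with a pileup of 2, and 2 of them were 36160 bp apart.

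The stretch with the most peaks was also the longest one. It measured 1468 kb on chromosome 4 from 29196279 to 30664595, between the pseudogene Gm11919 and the lncRNA gene 4930556G01Rik. The 4 peaks of this stretch began at 29393002, 29644754, 30136881, and 30226633 and had pileups of 4, 3, 2, and 2. Their nearest coding gene was Epha7, which encodes an ephrin receptor of axon guidance, 425499 to 1259130 bp away. On the other side, 1736623 to 2570251 bp from the peaks, lay Map3k7, which encodes TAK1, a kinase in TGF-β and BMP signaling. The gaps between the 4 peaks were 251.5, 491.8, and 89.4 kb, and the highest −log10 q was 3.60. The last 2 peaks were thus within 100 kb of each other, and the others were farther apart.

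Of the stretches with 3 peaks, the longest lay on chromosome 14 between the coding genes Olfm4 and Pcdh17, where the peak starting at 82652005, with a pileup of 4 and a −log10 q of 3.23, was 529779 bp from any gene, the largest distance in the list. The stretch between Lcorl and Slit2 on chromosome 5, which is 1219 kb long, held 3 peaks with a pileup of 2. The nearest coding gene of each was Lcorl, 706428 to 902022 bp away. Slit2, which encodes a secreted guidance cue, lay 1221047 to 1416660 bp from them. On chromosome 11, in the 943.1 kb stretch between the pseudogene Gm12004 and the lncRNA gene Gm30770, the pileups were 3, 2, and 2. Cobl, which encodes an actin-nucleating protein, was the nearest coding gene of the first 2 peaks, 657009 and 678065 bp away. For the third it was Pom121l12, 858227 bp away. A stretch of 607.2 kb on chromosome 5 held 3 peaks with pileups of 2, 5, and 2. The middle one, from 132986795 to 132987179, had a fold enrichment of 5.35 and a −log10 q of 4.31. The nearest coding gene of all 3 was Auts2, a gene of neuronal development, at 422615, 443575, and 768271 bp. Other long stretches held few peaks. The second longest stretch, 1311 kb on chromosome 15 between the type II cadherin genes Cdh6 and Cdh9, held none. That of 1272 kb on chromosome 3 held 1 peak with a pileup of 2, and that of 1270 kb on chromosome Y held none. The peak on chromosome 3 lay 1012885 bp from D3Ertd751e and 2561780 bp from Pcdh10, which encodes a protocadherin of neuronal adhesion. Among stretches between genes, the density was 1.46 per Mb (1.20 to 1.76) in those of 100 to 200 kb, 0.740 (0.636 to 0.856) in those of 200 to 500 kb, 0.727 (0.579 to 0.902) in those of 500 to 1000 kb, and 0.806 (0.440 to 1.35) in the 16 longer ones.

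The 3 strongest peaks in gene deserts by −log10 q lay at chromosome edges. The peak with the highest −log10 q, 219.6, was on chromosome 12 (3109873 to 3110087), where 183 fragments overlapped and the fold enrichment was 35.6. It lay 70004 bp inside the first annotated gene end of the chromosome, between the pseudogenes Gm48310 and Gm9077, and the nearest protein-coding gene was Rab10, a small GTPase of vesicle transport, 137341 bp away. The next, on chromosome X from 170880954 to 170881265, had a pileup of 125 and a −log10 q of 149.7, and lay 202900 bp beyond Asmt, the last annotated gene, which encodes the final enzyme of melatonin synthesis. A second peak beyond Asmt, from 170758177 to 170758458, had a pileup of 18. On chromosome 14 the peak from 124801549 to 124801949, with a pileup of 53 and a −log10 q of 48.1, lay 123863 bp beyond Fgf14, which encodes a partner of voltage-gated sodium channels. Taking the first or last annotated gene end as the edge of a chromosome, these 4 are all beyond an edge or within 1 Mb of it. The 3 highest pileups made up 24.4% of the summed pileup of the 393 peaks.

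Few desert peaks were near an edge. Counting those beyond the edge, 9 (2.29%, 1.05% to 4.30%) lay within 1 Mb, against 2.01% of all peaks in the list, and 7 of the 9 had a pileup of 3 or more, as did 28.5% of all desert peaks and 46.6% of the list. The peaks beyond the edge numbered 4, with pileups of 125, 53, 18, and 8, the last on chromosome 1 from 195371594 to 195371973. With them included, the shares were above those of the sequence at 500 kb (2.04%, 0.883% to 3.97%, against 0.539%), 2 Mb (4.33%, 2.54% to 6.84%, against 2.42%), and 5 Mb (10.2%, 7.37% to 13.6%, against 7.20%), while at 1 Mb the 1.11% of the sequence lay inside the interval, and the 0.95% of the sequence weighted by chromosome lay below it. However, sequence beyond the edge was counted only as far as such a peak, which puts these 4 near the edge by construction. Of the other 389, 5 (1.29%, 0.419% to 2.97%) lay within 1 Mb, against 1.05% of the sequence, 4 (1.03%, 0.281% to 2.61%) within 500 kb, against 0.482%, and 36 (9.25%, 6.57% to 12.6%) within 5 Mb, against 7.15%. Each of these shares of the sequence lay inside the interval, so that without the 4 peaks no excess near the edges was detectable. Of the 9 desert peaks with a pileup of 10 or more, 4 lay beyond or within 1 Mb of an edge, and so did 14 of the 137 other peaks with such pileups. At 5 Mb these counts were 6 and 28. The median distance to the edge was 30.5 Mb for desert peaks and 29.0 Mb for all other peaks. Without the 1 Mb at each edge 384 desert peaks were left, and 25.5% of them reached a q-value of at most 0.01.

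**Figure D5:**
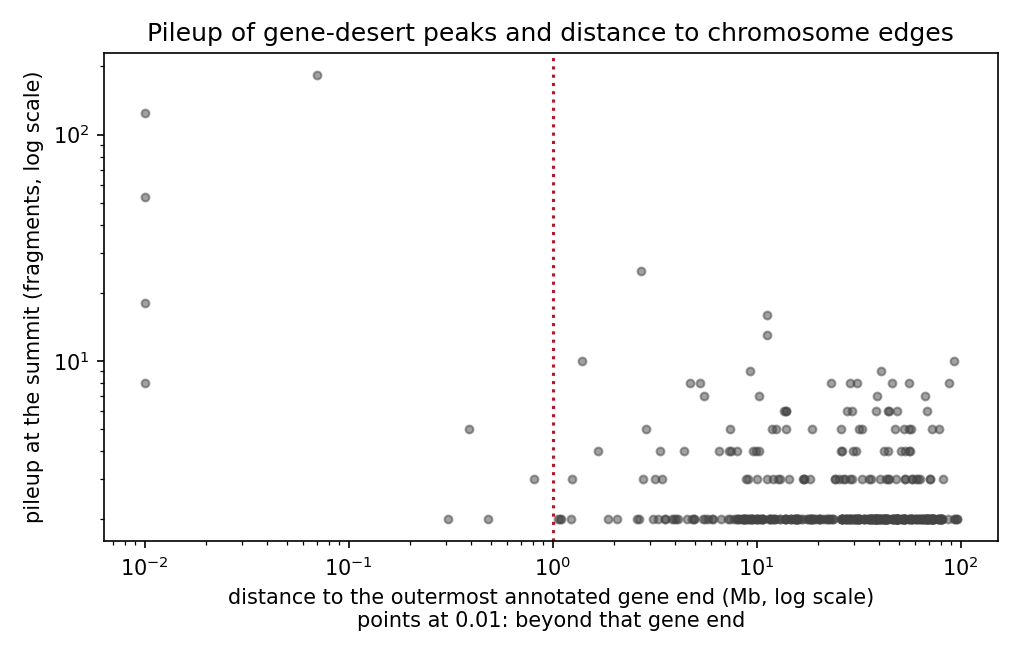
Pileup at the summit (vertical axis, log scale) of the 393 gene-desert peaks against the distance to the nearer chromosome edge (first or last gene end) in Mb (horizontal axis, log scale). Points at the left margin lie beyond that gene end, and the dotted line marks 1 Mb. The 3 highest pileups (183, 125, and 53) lie left of the line, while most of the 281 peaks with a pileup of 2 lie right of it.

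Away from the edges the 6 strongest desert peaks had pileups of 9 to 25 and ranked between 30 and 150 in the list by q-value. On chromosome 3 the peak from 5860385 to 5860819 had a pileup of 25 and a fold enrichment of 14.2, and its nearest coding gene was Pex2, a gene of peroxisome assembly, at 281789 bp. The peak on chromosome 19 (14314870 to 14315172), whose pileup was 16 and −log10 q 17.6, lay 132900 bp from Tle4, which encodes a Groucho-type corepressor, and 394898 bp from Olfr1505. On chromosome 1 a peak with a pileup of 13, from 14416495 to 14416707, lay 105460 bp from Eya1 and 336637 bp from Msc, both genes of developmental transcription control. The backgrounds of these last 2 peaks were at the floor set by their pileups, 16 and 13 units. Another on chromosome 1 (101996334 to 101996577), whose pileup was 10 and −log10 q 10.3, lay 1505735 bp from Cntnap5b, of the contactin-associated protein family, and 2771763 bp from Cdh20. On chromosome 3 a peak from 150622061 to 150622383 had a pileup of 9 and lay between Adgrl2 and Adgrl4, which encode adhesion G protein–coupled receptors. The tenth by q-value (chromosome 17, 54060054 to 54060370, pileup 9) lay between Sult1c1, a sulfotransferase gene, and Slc5a7, the choline transporter of cholinergic neurons, at 69423 and 213220 bp.

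The types of the genes nearest to the desert peaks were compared with those nearest to desert sequence. The nearest gene of any type was protein coding for 77 peaks (19.6%, 15.8% to 23.9%), a lncRNA for 116 (29.5%, 25.1% to 34.3%), and a pseudogene for 161 (41.0%, 36.1% to 46.0%), and these types were nearest to 17.5%, 28.2%, and 42.2% of the desert sequence, weighted by chromosome, all inside the intervals. Without the weights the protein-coding share of the sequence was 24.4%, above the interval, and without chromosome Y it was 17.6%. The nearest protein-coding gene was a median of 247.4 kb away, and over 500 kb away for 101 peaks. Taking gene strand from the RefSeq promoter table, which had it for the nearest coding gene of 315 peaks, the coding gene faced the peak with its start in 161 (51.1%, 45.4% to 56.8%), against 51.4% of the desert sequence. No preference for the 5′ side of genes was detectable at this number of peaks.

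For 6 lists of coding genes, the desert peaks with a member as nearest coding gene were counted. For each list the share of the desert sequence lay inside the exact interval of the share of peaks, so that no difference was detectable in either direction. This also held with the sequence weighted by chromosome, while without chromosome Y the share of the sequence for ion channels and receptors was 3.70%, just above the interval. Genes of synaptic adhesion and axon guidance were nearest to 39 peaks (9.92%, 7.15% to 13.3%) and to 8.51% of the sequence, and 23 of the 68 genes of the list that border a desert had a peak, against 300 of all 2474 coding genes that do so (12.1%), a count that also depends on the length of the deserts beside each gene. The highest pileups, at distances of 68.7 to 1506 kb from the gene, were those with Cntnap5b (pileup 10), Adgrl4 (9), Lrrtm4 (6), which encodes a leucine-rich repeat protein of excitatory synapses, and the immunoglobulin adhesion genes Cadm1 (6) and Cadm2 (4) as nearest coding gene. Adgrl4, which had 4 of the 39 peaks, is on the list by its name but is known from endothelial cells and not from synapses. The peak at Cadm1, 68.7 kb from that gene on chromosome 9 (47461276 to 47461487), had a −log10 q of 5.40.

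Genes of the cadherin superfamily were nearest to 20 desert peaks (5.09%, 3.14% to 7.75%) and to 5.70% of the sequence. Pcdh17 had 5 of the peaks in 2.58 Mb, the most of any coding gene, and the highest pileups, of 4, were found 222.1 kb from Pcdh9 and 1791 kb from Pcdh17, while a peak 682.3 kb from Cdh9 had 3 and those 621.5 kb from Cdh6 and 374.2 kb from Cdh10 had 2. Developmental transcription factors were nearest to 16 peaks (4.07%, 2.35% to 6.53%) and to 3.17% of the sequence. Of these, Lhx8, a factor of cholinergic neurons of the forebrain, had a peak with a pileup of 7 and a fold enrichment of 6.23 at 83.9 kb on chromosome 3, from 154414424 to 154414812, and Gata3 one with 4 at 185.4 kb, while the peaks 177.8 kb from Bcl11a, 345.5 kb from Sox9, and 865.2 kb from Zeb2 had 2. A pileup of 3 or more was found in 2 of these 16 peaks, in 4 of the 20 at cadherin genes, in 13 of the 39 at genes of synaptic adhesion and axon guidance, and in 3 of the 7 at the ion channel and receptor genes described next, against 28.5% of all desert peaks.

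Ion channels and neurotransmitter receptors were nearest to 7 peaks (1.78%, 0.719% to 3.64%) and to 3.23% of the sequence. The strongest was at 97.5 kb from the potassium channel gene Kcna5, with a pileup of 8 and a −log10 q of 6.41, followed by those 982.8 kb from Kcnt2 and 444.7 kb from the serotonin receptor gene Htr1b, each with a pileup of 3. The peak 325.2 kb from Gabrg1, which encodes a GABA receptor subunit, had 2. Among ligands, receptors, and Smads of the TGF-β and BMP pathways, Bmp2 alone was nearest to a desert peak (0.254%, 0.00644% to 1.41%, against 0.449% of the sequence). This peak, on chromosome 2 from 133858452 to 133858851 and 295.6 kb from Bmp2, had a pileup of 2 and a −log10 q of 1.57. No desert peak was nearest to an olfactory, vomeronasal, or trace amine receptor gene. A count of 0 of 393 allows a share of up to 0.934% by the exact interval, and these genes were nearest to 0.268% of the desert sequence.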

How the data were processed

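Per the labels, reads of the Cut&Tag libraries were aligned to mm10 (GRCm38) with BWA and peaks were called with MACS2, with no versions given, and the paper's methods add uniquely mapped reads and a cutoff below 0.05. Duplicate handling and the use of the IgG library as control are not given in the sources used here. The authors deposited a fold enrichment (ratio) over the background, a −log10 p-value and −log10 q-value, and a score (10 times the −log10 q, cut to a whole number). No q-value exceeded 0.0472. Starts were counted from 1. Read depth was not used here.

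Positions were compared with 49591 RefSeq genes on assembled chromosomes, 21770 of them protein coding. A further 348 entries of the table, whose positions fell out of order and were taken to refer to unlocalized or patch sequences, were left out, and 4 genes without a position could not be used. Of the gene-desert peaks, 4 lay within 1 Mb of where the table's order places such a gene and may be nearer to a gene than computed. Chromosomes were taken to span from the first to the last annotated gene end or peak. Expected shares were computed exactly from the lengths of the stretches, with no random draws. Pileup p and background b were recovered from fold = (p + 1) / (b + 1) and the Poisson probability of more than p fragments, and the calculation was tested on simulated data. Intervals are 95% exact (Clopper-Pearson or Poisson). Members, gene lists, and tests were chosen with earlier results of these data known. Named genes flank the 10 desert peaks with the highest −log10 q, the 5 stretches with the most peaks (ties by length), or the 5 longest, or are the first 5 of each gene list by −log10 q, of which 1 is not reported here. Tcerg1l, Gadl1, and the counts at Pcdh17 and Sox9 were chosen after their values were seen. No genome sequence was used, so peak sequences and repeats were not analysed here. Python 3.11.15, NumPy 2.4.6, pandas 2.3.3, SciPy 1.17.1, and Matplotlib 3.10.9 were used.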

Additional observations from a re-analysis of the deposited data

How the results depend on the processing

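No paired analysis was possible because each antibody has 1 library and 1 peak list was analysed. The limit on pileup and the alternatives with all positions of the gene table, without the 4 peaks near genes without a position, with sequence weighted by chromosome or without Y for the nearest genes, and without peaks and sequence beyond the outermost genes were chosen after seeing the data. Pileups of 2 in most gene-desert peaks limit every count. By construction of the limits, the number of gene-desert peaks was 756, 166, and 45 at more than 20, 100, and 200 kb, 1124 with protein-coding genes alone, 105 and 67 at a q-value of at most 0.01 and 0.001, 50 at a fold enrichment of at least 5, and 112 at a pileup of at least 3. The share of peaks in deserts relative to uniform placement stayed below 1 under each alternative run. It was 0.495 and became 0.547, 0.417, and 0.360 at the 3 distances, 0.612 with protein-coding genes alone, 0.344 and 0.380 at the q-value limits, 0.368 at a fold enrichment of at least 5, and 0.306 at a pileup of at least 3. The share of desert peaks with a q-value of at most 0.01 was 17.8% of 45 peaks beyond 200 kb. That with another peak within 100 kb was 16.9% and 17.8% beyond 100 and 200 kb, and, with fewer peaks to be neighbours, 11.4% at a q-value of at most 0.01, 6.0% at a fold enrichment of at least 5, and 11.6% at a pileup of at least 3, against 13.3%, 11.5%, 4.45%, 1.95%, and 4.76% of the sequence. The exact intervals of the shares beyond 100 and 200 kb and at a fold enrichment of at least 5 held the share of the sequence, so that no difference was detectable there. The share near an edge was 4.33% at 2 Mb, and within 1 Mb 6.67% and 8.96% for peaks passing 0.01 and 0.001, against 2.42%, 1.11%, and 1.11% of the sequence, each below the interval, with the 4 peaks beyond the outermost genes included. Without them and the sequence there, the share within 1 Mb relative to the sequence was 1.22 (0.397 to 2.82) in place of 2.06. Where the construction does not give it, the cause was not tested.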
